A study of Mus musculus with 8 samples.

Results

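The genes described here were 10 components of the circadian clock, taken by gene symbol from the 22059 genes listed for each liver sample. Arntl, Clock and Npas2 code for its activators, Per1, Per2, Per3, Cry1 and Cry2 for its repressors, and Dbp and Tef for output transcription factors. All 10 were found in all 8 samples, and all 10 passed the filter on low counts, which 17081 genes passed. The samples were whole livers of wild-type FVB mice (FVB/NJ in the Methods), 2 each at embryonic day 18 (E18), postnatal day 14 (P14), postnatal day 28 (P28) and in adults of 3 months, with no allele or agent that differed between the stages. The study calls the 2 samples of a stage biological duplicates. Its Methods name males for adult liver tissue and say that the work as a whole used both sexes, and no sex is given for the E18, P14 and P28 livers. The time of day at which a liver was taken and whether animals were pooled for sequencing were not found in the labels or the Methods. Stage and time of day therefore cannot be told apart in any comparison between stages, nor can stage and sex, and p-values measure the spread between these duplicates.

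The clock of a liver cell is a feedback loop of transcription. CLOCK, or its relative NPAS2, pairs with BMAL1, the product of Arntl, and the pair switches on the Per and Cry genes, whose proteins return to the nucleus and block it. The same pair drives Dbp, Tef and the REV-ERB genes Nr1d1 and Nr1d2, and the REV-ERB proteins repress Arntl and Npas2, so that over a day the RNA of Arntl and Npas2 is high when the RNA of Dbp is low.

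Between 68154675 and 106055723 reads per sample lay on genes. A level is given below as the deposited RPKM (read count divided by transcript length in kilobases and by library size) times 1 factor per sample that puts all samples on the TMM scale of edgeR, which assumes that most genes do not change. This factor was 0.627 and 0.642 for the E18 samples and 1.14 to 1.19 for the others, and without it the median gene shifts by -0.85 on the log2 scale from E18 to adult and by -0.87 from E18 to P14. The E18 samples stood apart in markers of blood-forming cells. The summed level of 6 erythroid markers was 5068 and 6652 at E18 against 47.5 to 66.4 later, that of 5 neutrophil and progenitor markers was 247 and 274 against 1.55 to 43.1, and that of 6 hepatocyte markers was 20870 and 21410 against 39750 to 108700. All 6 erythroid markers fell and all 6 hepatocyte markers rose from E18 to P14, and no marker of either list was at 0 in all samples. From E18 to adult all 6 erythroid markers and all 5 neutrophil and progenitor markers fell and 5 of 6 hepatocyte markers rose, while 2 of 4 Kupffer cell, 0 of 4 endothelial, 1 of 4 stellate, 0 of 4 cholangiocyte and 1 of 3 lymphocyte markers rose and 1, 2, 1, 3 and 0 of them fell. In whole tissue, fewer cells of a type and less RNA per cell cannot be told apart, and the part of these cells in the differences between E18 and later stages was not tested.

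Clock proteins act through short DNA elements, which were looked for in the RefSeq promoter windows of the genes (assembly GRCm38.p6, from 250 bases before to 50 bases after each start). The elements were the E-box CACGTG, bound by the CLOCK and BMAL1 pair, and the D-box TTANGTAA, bound by DBP, TEF and HLF. TNGGTCA, a loose form of the element of ROR and REV-ERB receptors, is called ROR element here. The cyclic AMP element was TGACGTCA, and each was searched on both strands. Where the element of these receptors has A or G, N allowed any base, and both Arntl matches printed have T or C. Of all 32851 windows, 7.15% held the E-box, 2.32% the D-box, 11% the ROR element and 1.79% the cyclic AMP element. Windows were found for 9 of the 10 clock genes. Per2 was not in the table. An E-box was found for 3 of these 9 genes (Per1, Cry1 and Tef), a D-box for 1 (Per3), a ROR element for 4 (Arntl, Per3, Cry2 and Tef) and a cyclic AMP element for 0. These counts are by gene over 14 windows and the shares above are by window, so counts and shares cannot be compared directly. The windows of Clock, Npas2 and Dbp held none of the 4 elements. Of 13 further clock genes with a window, 2 had an E-box. Among these was Ciart, a clock repressor listed as Gm129 in the files. The stretches printed come from the first window of each clock gene with an E-box or 2 copies of an element, and from Ciart. They are written 5′ to 3′ on the strand of the gene, the capitals mark the element, and no 2 of the elements found overlapped.
Arntl, 2 ROR elements, chr7:113207253-113207302, plus strand: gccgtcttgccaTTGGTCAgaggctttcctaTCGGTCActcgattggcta
Per1, E-box, chr11:69098771-69098800, plus strand: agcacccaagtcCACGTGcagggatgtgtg
Per3, 2 D-boxes, chr4:151044804-151044882, minus strand: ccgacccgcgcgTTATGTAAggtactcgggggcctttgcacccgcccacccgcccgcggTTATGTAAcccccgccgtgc
Cry1, E-box, chr10:85185097-85185126, minus strand: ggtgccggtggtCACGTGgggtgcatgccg
Tef, E-box, chr15:81802534-81802563, plus strand: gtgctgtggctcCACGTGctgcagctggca
Ciart, 3 E-boxes, chr3:95882255-95882356, minus strand: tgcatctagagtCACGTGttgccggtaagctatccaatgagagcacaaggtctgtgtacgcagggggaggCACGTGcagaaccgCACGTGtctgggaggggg
The ROR elements of Arntl lay 200 and 181 bases before its start, the D-boxes of Per3 205 and 158 bases, and the E-boxes of Ciart 116, 58 and 44 bases. At least 2 matches in a window were found for the ROR element in 0.755%, for the D-box in 0.0822% and for the E-box in 0.594% of all windows. A match of letters is a description, and binding was not measured.

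Each stage was compared with the next, and E18 with adult, by edgeR's quasi-likelihood test with Benjamini-Hochberg adjustment over all 17081 genes. A gene was said to rise or fall when its adjusted p was below 0.1 and its change was over 3-fold. From E18 to adult, 5 of the 10 clock genes rose (Clock, Per2, Per3, Dbp and Tef) and 0 fell, where 16.8% of all genes rose and 23.8% fell. Their median log2 fold change was 1.55, against -0.11 over all genes. From E18 to P14, 5 rose (Npas2, Per3, Cry1, Dbp and Tef) and 0 fell, against 13.8% and 15.4% of all genes, with medians of 1.66 and -0.03. These 2 comparisons share the E18 samples. At library size alone 3 clock genes rose and 2 fell (Arntl and Npas2) from E18 to adult, against 9.68% and 36.1% of all genes on that scale, and 1 rose (Dbp) and 0 fell from E18 to P14, against 7.41% and 29.8%.

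After P14 fewer clock genes passed. From P14 to P28, Dbp rose and Per1 fell, against 3.61% and 5.98% of all genes, with a median of 0.02 for the clock genes and -0.05 for all genes. From P28 to adult, Per1 rose and Arntl and Npas2 fell, against 0.767% and 2.24% of all genes, with medians of 0.49 and 0. Between P14 and adult, Dbp rose and Arntl and Npas2 fell (4.35% and 11.1% of all genes), and between E18 and P28, 5 clock genes rose and 0 fell (16.5% and 21% of all genes). Each of these comparisons shares samples with others.

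Without the fold threshold, 9 of the 10 passed from E18 to adult, 10 from E18 to P14, 4 from P14 to P28 and 7 from P28 to adult, where 83.4%, 77.5%, 53.8% and 21.2% of all genes did. All 10 differed somewhere among the 4 stages, as did 91% of all genes.

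**Figure D1:**
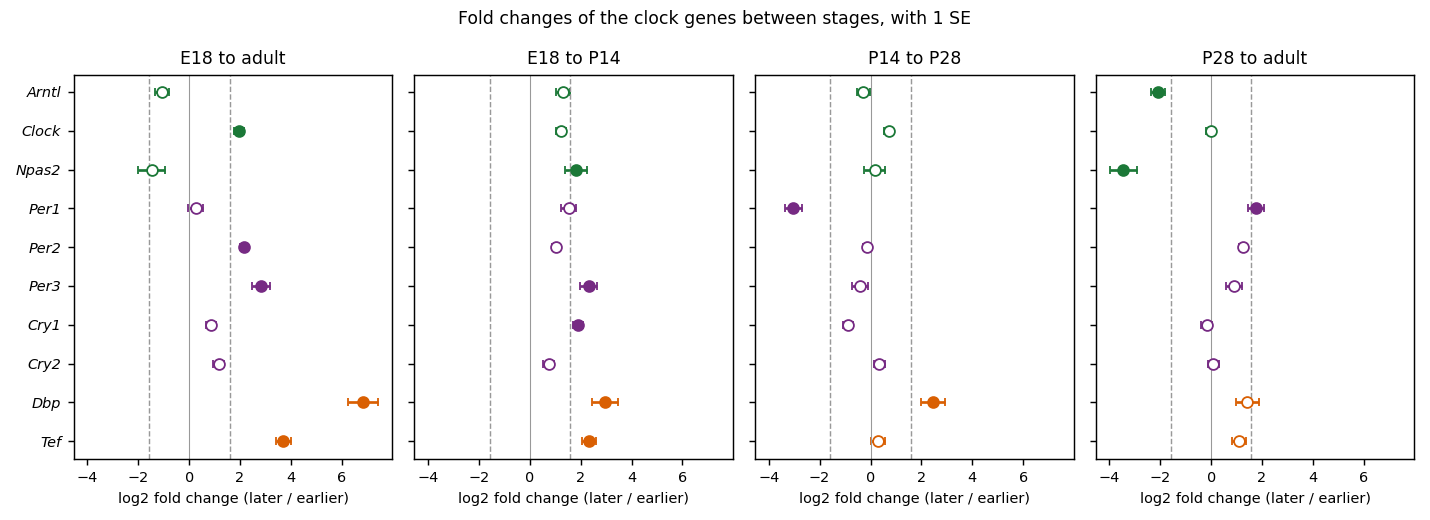
Log2 fold change of each clock gene (later over earlier stage) in 4 comparisons, with 1 standard error. Filled points passed an adjusted p below 0.1 and the 3-fold threshold (dashed lines), and Dbp and Tef lie farthest to the right from E18 to adult, while Arntl and Npas2 are the filled points on the left from P28 to adult.

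The activators did not move as 1 group. Arntl and Npas2 were high at P14 and P28 and lowest in adult liver, and Clock was as high in adult as at P28. The level of Arntl, which codes for the obligate partner in the activating pair, was 3.59 and 3.48 (E18), 7.86 and 9.56 (P14), 8.93 and 5.35 (P28), and 1.26 and 2.06 (adult). Both adult samples lay under all 6 others, and the ranges at P14 and P28 overlapped. Its fall from P28 to adult was -2.10 ± 0.28 on the log2 scale (SE, adjusted p = 0.0018 by edgeR), and that from P14 to adult -2.39 ± 0.28 (adjusted p = 0.00011). From E18 to adult the difference was -1.08 ± 0.27 (adjusted p = 0.0050), which is under 3-fold on this scale and over it at library size alone, with -1.93. From E18 to P14 it was 1.30 ± 0.26 (adjusted p = 0.0016), also under 3-fold.

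Npas2, a relative of Clock that can take its place beside BMAL1, was also highest at P14 and P28 and lowest in adult, at a lower level. It was at 0.338 and 0.275 (E18), 0.988 and 1.16 (P14), 1.76 and 0.641 (P28), and 0.0650 and 0.151 (adult). The adult levels rest on 17 and 45 reads, against 151 to 632 reads in the other samples, and the adult samples were the lowest of all and the least precise. The fall from P28 to adult was -3.45 ± 0.52 (adjusted p = 0.0033), or 11-fold, and the rise from E18 to P14 was 1.81 ± 0.44 (adjusted p = 0.0047), or 0.93 and under 3-fold at library size alone. At P28 the 2 samples differed by 2.74-fold, with 1 above both P14 samples and 1 below. The difference from E18 to adult, -1.48 ± 0.53 (adjusted p = 0.027), was under 3-fold, and without E18 sample 2 or without adult sample 2 it was over it, with -1.62 and -2.23.

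Clock itself was at 1.79 and 1.56 (E18), 3.96 and 3.91 (P14), 7.37 and 5.63 (P28), and 5.26 and 7.69 (adult). It rose from E18 to adult by 1.95 ± 0.19 on the log2 scale (adjusted p = 1.1e-05). At library size alone this was 1.1 and no longer over 3-fold. P28 and adult overlapped, with a difference of -0.01 ± 0.18 (adjusted p = 0.99), and P14 lay below both by less than 3-fold. Within a sample, Arntl over Clock was 2.00 and 2.23 in RPKM (E18), 1.99 and 2.45 (P14), 1.21 and 0.950 (P28), and 0.240 and 0.268 (adult). Arntl thus stood above Clock in both samples at E18 and P14 and below it in both adult samples.

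**Figure D2:**
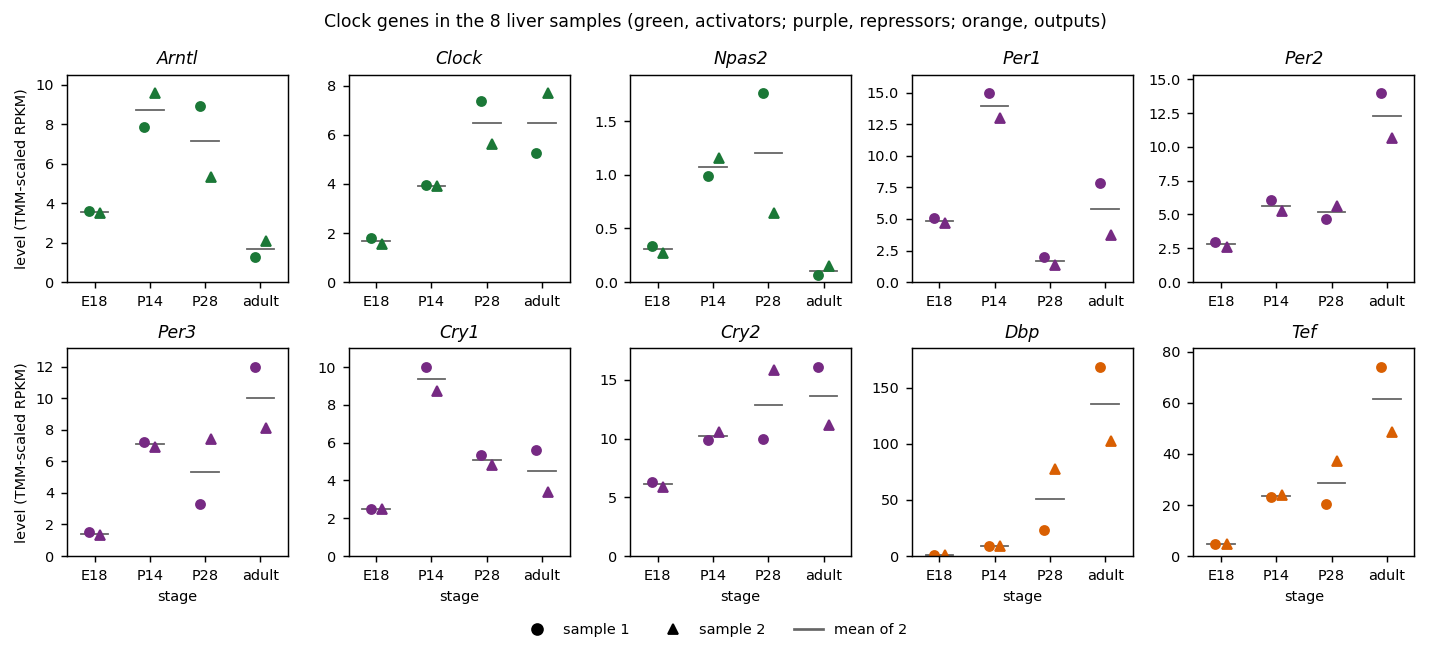
Level (RPKM on the TMM scale, y axis from 0) of the 10 clock genes in each of the 8 liver samples by stage, with circles for sample 1, triangles for sample 2 and a line at their mean. Arntl and Npas2 are lowest in adult, where Dbp, Tef, Per2 and Per3 are highest, and the 2 samples of P28 and of adult lie farther apart than those of E18 and P14 in most panels.

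Among the repressors, Per2 and Per3 were highest in adult, Per1 and Cry1 at P14, and Cry2 differed least. The Per proteins are the limiting partners of the repressing complex. Per1, which light and hormones can also switch on directly, was at 5.06 and 4.69 (E18), 14.9 and 13.0 (P14), 2.02 and 1.39 (P28), and 7.87 and 3.70 (adult). It fell from P14 to P28 by -3.03 ± 0.32 (adjusted p = 0.00012), or 8.19-fold, and the P28 samples were below all others. Its rise from P28 to adult, 1.76 ± 0.31 (adjusted p = 0.0074), was no longer over 3-fold without adult sample 1, with 1.12, or without P28 sample 2, with 1.52. The 2 adult samples lay on both sides of the E18 samples, and the difference from E18 to adult was 0.25 ± 0.30 (adjusted p = 0.47), with -0.39 without adult sample 1 and -0.61 at library size alone.

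Per2 followed another course. Its level was 2.97 and 2.62 (E18), 6.08 and 5.22 (P14), 4.69 and 5.61 (P28), and 14.0 and 10.7 (adult). It rose from E18 to adult by 2.14 ± 0.16 (adjusted p = 1.5e-06), while P14 and P28 overlapped, and the difference from P28 to adult of 1.26 ± 0.15 (adjusted p = 0.0013) was under 3-fold. At library size alone the difference from E18 to adult was 1.28 and under 3-fold. The ratio of Per1 to Per2 within a sample was 1.71 and 1.79 in RPKM (E18), 2.46 and 2.48 (P14), 0.429 and 0.248 (P28), and 0.564 and 0.347 (adult), so that Per1 exceeded Per2 in the 4 younger samples and not in the 4 older ones.

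Per3, which modulates the loop without being essential to it, was at 1.51 and 1.33 (E18), 7.22 and 6.93 (P14), 3.30 and 7.41 (P28), and 12 and 8.12 (adult). The adult samples were the highest and the E18 samples the lowest, with P14 inside the range of P28. It rose by 2.32 ± 0.33 from E18 to P14 (adjusted p = 0.00021) and by 2.82 ± 0.34 from E18 to adult (adjusted p = 4.8e-05), the former being 1.45 and under 3-fold at library size alone. From P28 to adult it passed 3-fold only when P28 sample 2 was left out, with 1.60 against 0.91 ± 0.32 with all samples.

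Both cryptochromes, which carry the repression of the BMAL1 pair, changed less. Cry1 was at 2.5 and 2.51 (E18), 9.98 and 8.75 (P14), 5.34 and 4.81 (P28), and 5.60 and 3.38 (adult). It was highest at P14 in both samples and rose from E18 to P14 by 1.90 ± 0.20 (adjusted p = 2.9e-05), or 1.04 and under 3-fold at library size alone. P28 and adult overlapped. Cry2 was at 6.33 and 5.87 (E18), 9.87 and 10.5 (P14), 9.98 and 15.8 (P28), and 16.1 and 11.2 (adult). Its difference from E18 to adult was 1.16 ± 0.22 (adjusted p = 0.00096), and no interval was over 3-fold. P14 lay above E18 (0.74 ± 0.22, adjusted p = 0.013), while P28 overlapped both P14 and adult. In RPKM within a sample Cry2 exceeded Cry1 in 7 of 8 samples.

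The outputs showed the widest range. DBP, TEF and HLF are the PAR bZIP factors that bind the D-box and carry the rhythm to genes of detoxification and metabolism. Dbp was at 1.27 and 1.09 (E18), 9.29 and 9.13 (P14), 23.3 and 77.9 (P28), and 168 and 103 (adult). Every later stage lay above the one before it with no overlap. From E18 to adult it rose by 6.84 ± 0.58 on the log2 scale (adjusted p = 4.3e-06), or 115-fold, and from E18 to P14 by 2.97 ± 0.51 (adjusted p = 0.00061). The rise from P14 to P28 was 2.46 ± 0.47 (adjusted p = 0.0030). Without P28 sample 2 it was 1.34 and under 3-fold, and then the difference from P28 to adult, 1.42 ± 0.45 with all samples (adjusted p = 0.070), became 2.54 and over 3-fold.

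Tef rose less than Dbp. It was at 4.83 and 4.61 (E18), 23.2 and 23.9 (P14), 20.3 and 37.4 (P28), and 74.0 and 48.8 (adult). The rise from E18 to adult was 3.70 ± 0.30 (adjusted p = 2.8e-06), or 13.0-fold, and that from E18 to P14 2.32 ± 0.28 (adjusted p = 6.4e-05), while P14 lay inside the range of P28. At library size alone the latter was 1.45 and under 3-fold. From P28 to adult the difference was 1.09 ± 0.27 (adjusted p = 0.028), and without P28 sample 2 it was 1.60 and over 3-fold. Within a sample, Dbp over Tef in RPKM was 0.262 and 0.236 (E18), 0.4 and 0.381 (P14), 1.15 and 2.09 (P28), and 2.27 and 2.11 (adult), so that the more abundant of the 2 changed from Tef to Dbp between P14 and P28 in all samples.

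A ratio of 2 genes within a sample does not depend on the scaling between samples. It does depend on the hour at which a liver was taken, which is not known, since Arntl and Dbp peak at different times of day. As scores over chosen genes these ratios are given without a test. The log2 ratio of Arntl to Dbp in RPKM was 1.5 and 1.68 (E18), -0.24 and 0.07 (P14), -1.38 and -3.87 (P28), and -7.06 and -5.64 (adult). The 4 stages did not overlap, and the mean moved from 1.59 ± 0.12 (SD, n = 2) at E18 to -6.35 ± 1.01 in adult, a difference of -7.94. On the linear scale Arntl exceeded Dbp by 2.83 and 3.20 times in the E18 samples, and Dbp exceeded Arntl by 134 and 49.8 times in the adult samples.

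Npas2, the other activator that REV-ERB proteins repress, gave the same order over Dbp, but this ratio shares its denominator with Arntl over Dbp. Dbp alone rose by 6.84 on the log2 scale from E18 to adult. From E18 to P14 Arntl and Npas2 went up by 1.30 and 1.81, and both ratios fell as Dbp went up by 2.97. Npas2 over Dbp went from a mean of -1.94 ± 0.06 (SD, n = 2) at E18 through -3.11 ± 0.18 and -5.33 ± 2.26 to -10.37 ± 1.36 in adult, with no overlap between stages. Clock over Dbp moved less, from 0.51 ± 0.01 to -4.37 ± 0.89, and P28 and adult overlapped. With Tef, the other output, in the place of Dbp, adult was still lowest by its mean, but the stages were not all apart. Arntl over Tef was -0.43 and -0.41 (E18), -1.56 and -1.32 (P14), -1.18 and -2.81 (P28), and -5.88 and -4.56 (adult). Npas2 over Tef overlapped between E18 and P28 and between P14 and P28, and Clock over Tef also between P28 and adult.

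With Per2 or Per3 in the place of Dbp, the ratio set adult apart from the younger stages but did not order those. Arntl over Per2 was 0.27 to 0.93 in the E18 and P14 samples and in P28 sample 1, -0.07 in P28 sample 2, and -3.47 and -2.37 in adult. Arntl over Per3 was 1.25 and 1.39 (E18), 0.12 and 0.46 (P14), 1.44 and -0.47 (P28), and -3.25 and -1.98 (adult). Arntl over Per1 stood at 2.15 and 1.94 in the P28 samples, above all others, and at -0.50 and -0.43 at E18, -0.93 and -0.44 at P14, and -2.64 and -0.84 in adult. P28 was thus the stage at which Arntl was highest relative to Per1, and adult that at which it was lowest relative to Per2 and Per3.

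**Figure D3:**
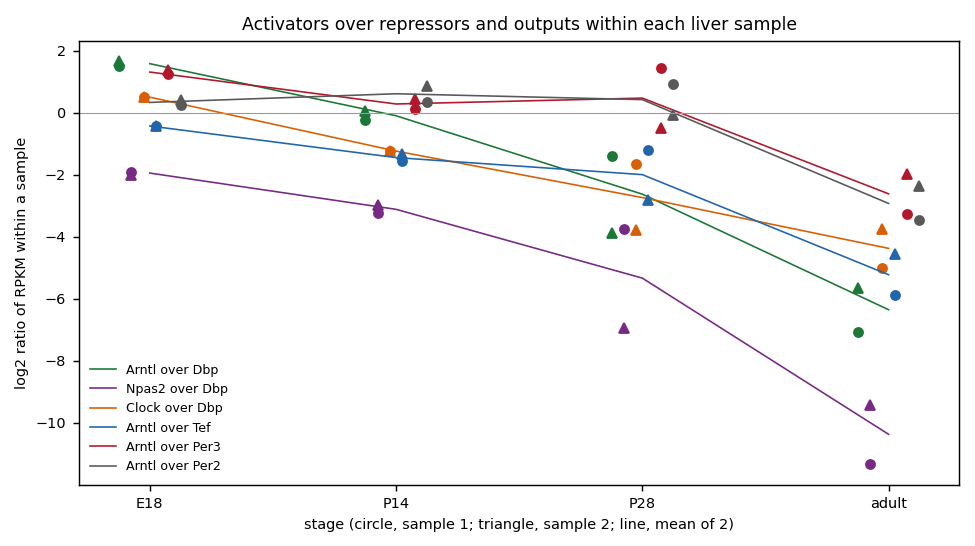
Log2 ratio of RPKM within each liver sample (y axis) by stage, for 3 activators over Dbp and for Arntl over Tef, Per3 and Per2, with circles for sample 1, triangles for sample 2 and lines through the stage means. All 6 ratios are lowest in adult by their mean, and in 5 of the 6 the P28 samples are the farthest apart, with Arntl over Dbp at -1.38 and -3.87.

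The 2 samples of a stage were then compared with each other, since the hour at which each was taken is not given. Over 13081 genes with a mean of at least 1 CPM (counts per 1000000 reads) and reads in all samples, 5% of genes differed between the samples by more than 0.61 (E18), 0.49 (P14), 0.57 (P28) or 0.60 (adult) on the log2 scale. Of the 10 clock genes, 0 lay beyond that size at E18 and 0 at P14, but 6 did so at P28 and 6 in adult. The comparison of 1 sample with another has no replicates, and no test was made.

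At P28, sample 2 had less of the activators and more of the outputs. Relative to sample 1, Arntl was at -0.74 on the log2 scale, Npas2 at -1.46 and Clock at -0.39, while Dbp was at 1.74, Per3 at 1.17, Tef at 0.88 and Cry2 at 0.66. Dbp included, 23 of the 13081 genes differed at least as much as Dbp, and 47 at least as much as Npas2. Per1 at -0.54 and Cry1 at -0.15 had the sign of the activators, and Per2 was at 0.26.

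In adult the direction was the other one. Sample 2 had more of the activators, with Arntl at 0.71, Npas2 at 1.21 and Clock at 0.55, and less of all repressors and outputs, with Per1 at -1.09, Cry1 at -0.73, Dbp at -0.71, Tef at -0.60, Per3 at -0.56, Cry2 at -0.52 and Per2 at -0.39. Activators and outputs therefore had opposite signs at both stages. At E18 all clock genes differed by 0.30 or less and at P14 by 0.28 or less. The summed levels of the 8 lists of cell type markers differed between the 2 samples by 1.00 to 1.19 times at P28 and by 1.02 to 1.25 times in adult.

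**Figure D4:**
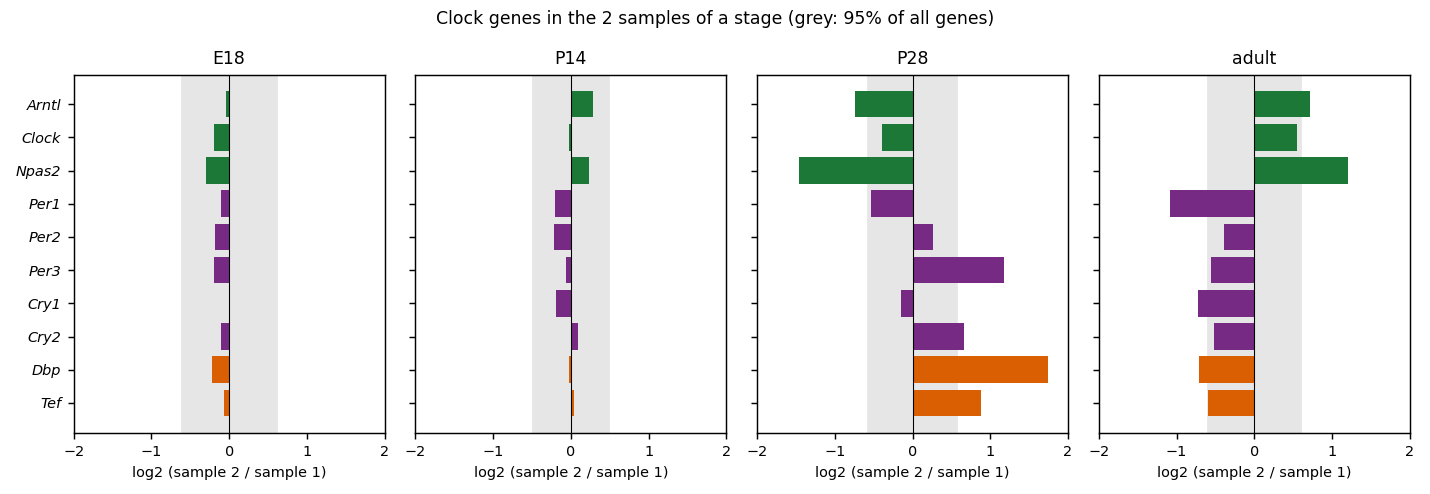
Log2 ratio of sample 2 to sample 1 for each clock gene at each stage (bars, green for activators, purple for repressors, orange for outputs), with a grey band that holds 95% of 13081 genes. At P28 and in adult 6 of 10 bars leave the band at each stage, and the green and orange bars point in opposite directions.

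Of 19 further clock genes, 18 were tested, and Rorb, with 0 to 8 reads per sample, was not. From E18 to adult 10 rose and 3 fell, against 16.8% and 23.8% of all genes, with a median log2 fold change of 1.81 against -0.11. From E18 to P14 6 rose and 1 fell (13.8% and 15.4% of all genes), from P14 to P28 2 rose and 0 fell (3.61% and 5.98%), and from P28 to adult 2 rose and 0 fell (0.767% and 2.24%). Nr1d1, which codes for REV-ERBα, the repressor of Arntl, was at 2.51 and 2.30 (E18), 5.24 and 4.36 (P14), 36.5 and 62.6 (P28), and 57.7 and 54.2 (adult). It rose between P14 and P28 by 3.37 ± 0.23 (adjusted p = 1.3e-05), or 10.3-fold, and P28 and adult overlapped. Its paralogue Nr1d2 was at 0.306 and 0.156 (E18), 1.37 and 1.07 (P14), 3.21 and 3.69 (P28), and 5.14 and 4.41 (adult), with no overlap between the stages.

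Arntl differed by -0.29 ± 0.26 (adjusted p = 0.39) over the interval in which Nr1d1 rose, with its P28 samples at 8.93 and 5.35. A link between the levels of Nr1d1 and Arntl was not tested. Arntl over Nr1d1 within a sample was 0.52 and 0.60 on the log2 scale (E18), 0.59 and 1.13 (P14), -2.03 and -3.55 (P28), and -5.52 and -4.72 (adult). The E18 and P14 ranges overlapped, and P28 and adult each lay below all younger samples.

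Rora, which codes for an activating receptor that shares the ROR element with REV-ERB, rose from E18 to adult by 2.26 ± 0.32 (adjusted p = 0.00014), although its E18 samples, at 1.14 and 0.541, differed from each other by 2.11-fold.

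Nfil3, a repressor that competes for the D-box, rose by 2.26 ± 0.09 from E18 to P14 (adjusted p = 7.0e-08) and stood at 13.1 to 18.3 in all postnatal samples. Hlf, the third PAR bZIP factor, rose by 1.63 ± 0.12 (adjusted p = 1.9e-06) over the same interval and was at 9.05 to 14.1 from P14 on. Hlf over Dbp therefore went from log2 ratios of 1.66 and 1.85 at E18 to -3.57 and -3.12 in adult.

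Ciart and Bhlhe41, both repressors of the BMAL1 pair, rose late. Bhlhe41 was at 0.164 and 0.531 at P28 and at 2.54 and 1.27 in adult (2.47 ± 0.57, adjusted p = 0.022). It also rose from P14 to P28 (2.46 ± 0.74, adjusted p = 0.025), on 10 and 7 reads at P14 and 20 and 58 at P28. Ciart was at 0.183 and 0.951 at P28 and at 5.99 and 1.28 in adult (2.69 ± 0.83, adjusted p = 0.063). Ciart differed by 5.19-fold between the P28 samples, on 22 and 102 reads, and by 4.70-fold between the adult samples. At both stages the sample with more Dbp had more Ciart. At P14 Ciart was at 0.705 and 0.277, a difference of 2.55-fold, while Dbp differed by 1.02-fold. The cause of these differences was not tested. Of the 16 further clock genes with at least 1 CPM, 2 lay beyond the size that 5% of genes exceed between the samples at E18 (Nr1d2 at -0.98 and Rora at -1.08, sample 2 relative to sample 1 on the log2 scale), 1 at P14 (Ciart at -1.35), 2 at P28 (Ciart at 2.37 and Nr1d1 at 0.78) and 1 in adult (Ciart at -2.23). Bhlhe40, at 10.7 and 12.2 at E18 and 29.9 to 44.4 later, rose from E18 to P14 by 1.66 ± 0.14 (adjusted p = 6.4e-06).

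Arntl2, the paralogue of Arntl, fell from E18 to adult by -2.02 ± 0.46 (adjusted p = 0.0031), on 31 and 56 reads at E18 and 5 in each adult sample. Timeless and Tipin, which act in DNA replication, fell from E18 to adult by -2.83 ± 0.18 (adjusted p = 6.1e-07) and -3.23 ± 0.23 (adjusted p = 1.2e-06). Fbxl21, which takes part in cryptochrome turnover, rose from 1.02 and 1.01 at E18 to 6.52 and 6.89 in adult (2.72 ± 0.11, adjusted p = 3.6e-08). Csnk1d and Csnk1e, the kinases that mark PER for breakdown, and Btrc and Fbxw11 did not pass the thresholds in this comparison.

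**Figure D5:**
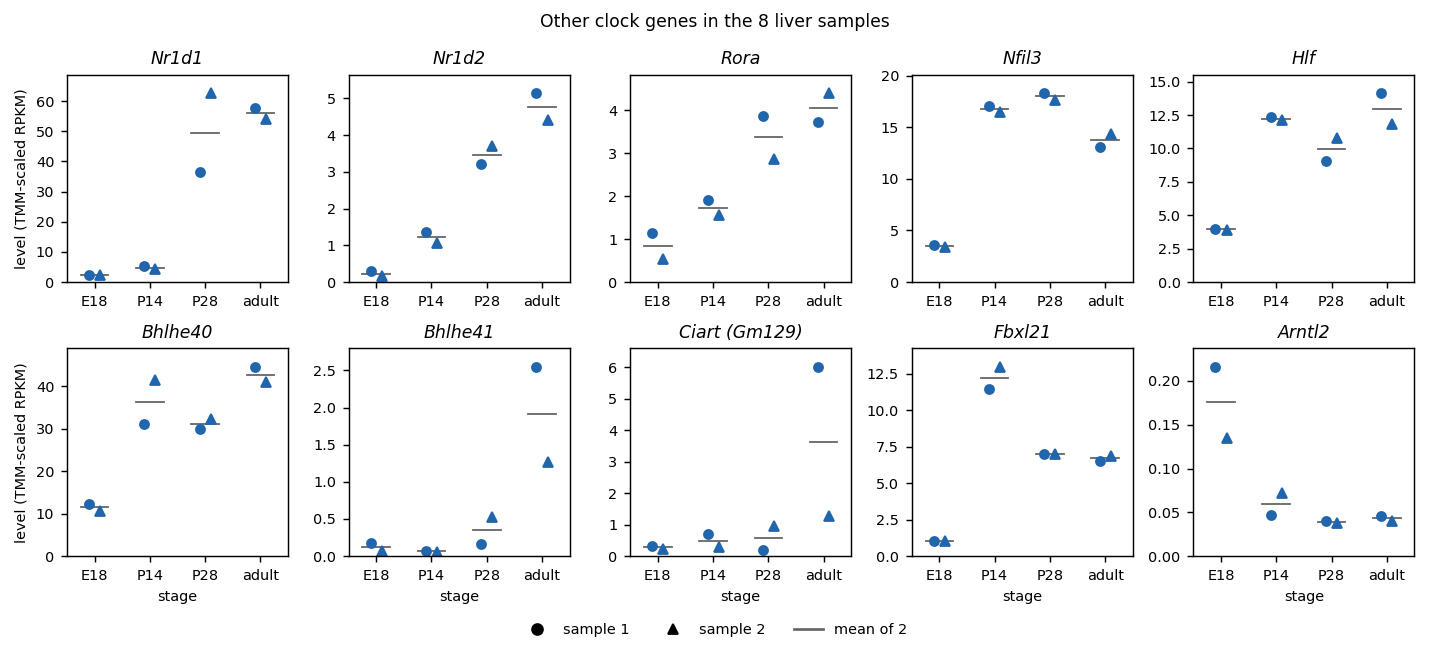
Level (RPKM on the TMM scale, y axis from 0) of 10 further clock genes in each liver sample by stage, with circles for sample 1, triangles for sample 2 and a line at their mean. Nr1d1 is at 5.24 or less up to P14 and at 36.5 or more from P28, Nfil3, Hlf, Bhlhe40 and Fbxl21 are up by P14, and Bhlhe41 and Ciart are highest in adult.

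The genes whose pattern over the 8 samples was most like that of Arntl were found by Pearson's r of log2 CPM among 13194 genes. They were Arhgap44 (r = 0.993), Npas2 (0.990), Kbtbd13 (0.983), Slc2a13 (0.979) and Usp18 (0.975), and the most unlike were Lsm14b (-0.970), Rpf1 (-0.969) and Cdk7 (-0.961). For Dbp they were Slc39a2 (0.995), Rab4a (0.993), Surf2 (0.992), Golga5 (0.992) and Tmem167b (0.991), with Lck (-0.997), Wdfy4 (-0.996) and Mms22l (-0.995) the most unlike. These r describe 8 samples that share 4 stages and the cell composition of each, so any gene that goes up steadily with age scores high beside Dbp. Tef stood at rank 374 beside Dbp with r = 0.97 and Nr1d2 at rank 286 with r = 0.97, whereas Arntl had r = -0.35.

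Of 12 genes known as rhythmic outputs in liver, 9 rose from E18 to P14 and 0 fell, against 13.8% and 15.4% of all genes. From P14 to P28 0 rose and 4 fell (3.61% and 5.98% of all genes), with a median of -1.15, and from P28 to adult 3 rose and 0 fell (0.767% and 2.24%), with a median of 1.01. The 4 that fell after P14 were Usp2 (-2.68 ± 0.63, adjusted p = 0.0082), a clock-driven deubiquitinase, Nampt (-1.83 ± 0.12, adjusted p = 1.1e-05), the rate-limiting enzyme of NAD salvage, Ccrn4l (-1.82 ± 0.23, adjusted p = 0.00028), known as nocturnin, and Cyp7a1 (-1.59 ± 0.28, adjusted p = 0.0017), the rate-limiting enzyme of bile acid synthesis. Per1 also fell and Dbp rose over this interval. Since these 4 were named for falling, a direction shared with Per1 was fixed by the choice. Those that rose from P28 to adult were Usp2 (3.19 ± 0.64, adjusted p = 0.013), Alas1 (2.23 ± 0.46, adjusted p = 0.014), the first enzyme of heme synthesis, and Lpin1 (2.03 ± 0.29, adjusted p = 0.0027), a phosphatidic acid phosphatase.

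From E18 to adult 10 of these 12 rose and 0 fell (16.8% and 23.8% of all genes), led by Upp2, uridine phosphorylase 2, with 9.16 ± 0.34 (adjusted p = 2.0e-08). Usp2 and Alas1 differed within P28 and in opposite directions. Usp2 was at 0.337 and 1.11 and Alas1 at 99.9 and 30.7 in samples 1 and 2. In adult Usp2 was at 10.3 and 2.80, a difference of 3.69-fold that, Usp2 included, 17 of the 13081 genes matched or exceeded, so its rise from P28 to adult rests on samples that lay far apart at both stages.

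Per1 and the other Per genes also answer to signals other than the clock, and lists for those were counted beside them. Of 9 early response genes, 1 rose from E18 to P14 (Jun, by 2.06 ± 0.38, adjusted p = 0.00097), and 1 fell from P14 to P28 and again from P28 to adult (Egr1, by -2.23 ± 0.29, adjusted p = 0.00036, and -2.08 ± 0.31, adjusted p = 0.0031). Of 6 glucocorticoid-responsive genes, 5 rose from E18 to P14. The log2 fold changes of the 6 lay between -1.20 and 1.29 from P14 to P28 and between -1.31 and 0.32 from P28 to adult. Per1 fell and rose in these intervals. From P14 to P28 all but the gene at 1.29 went down, with a median of -0.34, and from P28 to adult the median was 0.01. Of 9 heat and cold response genes, which follow body temperature, 1 fell from E18 to P14 (Rbm3, by -1.74 ± 0.12, adjusted p = 1.7e-06), 2 rose from P14 to P28 and 4 from P28 to adult, where Hspa1a rose by 1.90 ± 0.24 (adjusted p = 0.0014) and Hspa1b by 2.04 ± 0.27 (adjusted p = 0.0018). These are near-identical copies whose reads may be split between them. The part of these signals in the levels of the clock genes was not tested.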

How the data were processed

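Poly(A) RNA of 8 whole-liver samples was sequenced by the authors as read pairs. They aligned the reads, and deposited for each gene symbol a raw read count without filter and an RPKM, the count scaled by transcript length and library size. The submitters' processing notes name the genome build mm9, and the files hold no coordinates. RNA was isolated with Trizol per the labels and with an RNeasy kit per the Methods. Dividing count by RPKM gave a single total per sample.

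Counts were filtered by filterByExpr, scaled by TMM and fitted with 1 coefficient per stage over all 8 samples in edgeR (version 4.0.16, R 4.3.3). Calls needed an adjusted p below 0.1, the false discovery rate of the authors' DESeq test, and a change over 3-fold, the size they used for expression changes. The pairing of both was chosen here. The SE was the log2 fold change divided by the square root of F. Within-sample ratios used RPKM. Python (version 3.11.15) with pandas (2.3.3), numpy (2.4.6) and matplotlib (3.10.9) gave the descriptions. The fits were tested on simulated data.

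The clock genes and all lists were chosen with earlier results of these data known. Named were the 10 clock genes, 8 other clock genes in any case and those called from E18 to adult, genes of other lists called in the interval described, and the 5 most like and 3 most unlike Arntl and Dbp with a mean of at least 1 CPM. Some genes of the lists are counted but not reported here by name.

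Alternatives were no filter, a minimum of 10 counts in each sample, median-ratio scaling, library size alone, DESeq2 (version 1.42.0), limma (version 3.58.1) on log2(RPKM + 0.1), only the 2 stages compared, a replicate block, a 2-fold or no fold threshold, a false discovery rate of 0.05, each sample left out, and for the Arntl to Dbp ratio RPKM + 0.1 and counts + 0.5. Markers followed were those of hepatocytes, erythroid cells, neutrophils and progenitors, Kupffer cells, endothelium, stellate cells, cholangiocytes and lymphocytes. Proteins were not used here.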

Additional observations from a re-analysis of the deposited data

How the results depend on the processing

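With 2 samples a stage, a change under about the spread of P28 or adult cannot be resolved, and Npas2 and Arntl2 in adult are limited by counts. A minimum of 10 counts in each sample put Npas2 past 3-fold from E18 to adult (-1.62). No filter, DESeq2, median-ratio scaling, the fit of only the 2 stages compared and the replicate block left all 40 single-gene calls and directions as they were. Same-numbered samples did not deviate together over all genes (correlations of -0.192 to 0.076 over 6 pairs of stages). Whether the numbers mark a litter or a day is not known, and a block acting on few genes would not show here. With the replicate block 5, 5, 2 and 3 clock genes passed from E18 to adult, E18 to P14, P14 to P28 and P28 to adult, as without it.

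At library size alone, which takes no account of composition, 1 clock gene passed from E18 to P14. Per1 (-0.61) and Cry1 (-0.01) from E18 to adult, Cry2 (-0.13) from E18 to P14 and Clock (0.03) from P28 to adult changed sign. By limma on log2(RPKM + 0.1) 1 passed from E18 to P14, and Per1 (-0.71), Cry1 (-0.07), Cry2 (-0.12), Npas2 from P14 to P28 (-0.03) and Clock (0 after rounding) changed sign. Of the clock genes called from E18 to adult, Clock and Per2 were under 3-fold in both, and Arntl and Npas2 passed as falls. At a 2-fold threshold 8, 9 and 6 clock genes passed from E18 to adult, E18 to P14 and P28 to adult (56.3%, 45.2% and 6.18% of all genes), and at the false discovery rate alone 9, 10, 4 and 7 passed in the 4 comparisons.

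When any single sample was left out, the counts were 5 to 6, 5 to 6, 1 to 2 and 2 to 5. Values that changed sign ranged from -0.39 to 0.69 for Per1 (E18 to adult); from P14 to P28, -0.71 to 0.03 for Arntl, -0.75 to 0.71 for Npas2, -1.10 to 0.06 for Per3, -0.03 to 0.63 for Cry2 and -0.22 to 0.66 for Tef; and from P28 to adult, -0.31 to 0.24 for Clock, -0.59 to 0.13 for Cry1 and -0.21 to 0.45 for Cry2. None of these passed with all samples, and a stage left with 1 sample was assumed to vary like the others. The lowest count from P14 to P28 and the highest from P28 to adult came without P28 sample 2. The Arntl to Dbp ratio, adult minus E18, was -7.94, with -8.65 to -7.23 when a sample was left out, -7.79 with RPKM + 0.1 and -7.94 from counts.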
